A study of Mus musculus with 6 samples.

Results

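Neb, the gene for the giant muscle protein nebulin, was examined in naïve CD4 T cells that lack the cap methyltransferase RNMT and in their controls. It is 1 gene of the 46983 in the count tables, chosen by its symbol and its Ensembl identifier, ENSMUSG00000026950, because of its rise in this same comparison. Its levels are therefore given as a description, with no test. Gene expression was measured by sequencing of rRNA-depleted total RNA in 6 libraries of naïve CD4 T cells from mouse lymph nodes. The 3 control libraries came from male Rnmt fl/fl mice without Cre, and the 3 Rnmt cKO (conditional knock-out) libraries came from male Rnmt fl/fl mice that carried CD4cre, all on a C57B6/J background. The ages of the mice are not given in the sources used here. The transgene is driven by Cd4 regulatory sequence and deletes Rnmt from the double positive stage of thymic development onwards. The transgene and the loss of Rnmt always came together, so their effects cannot be told apart. The cells were sorted with a gate for living resting T cells that included TCRb+, CD4+, CD44- and DAPI-. The labels give each library as a separate sample and do not name the animals, so the spread reported here is that between samples.

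Nebulin is one of the largest known proteins. In skeletal muscle, where it is chiefly made, single nebulin molecules run along the actin thin filament of the sarcomere from its anchor in the Z disc, and they help set thin filament length and the force of contraction. Loss of function of the human gene causes nemaline myopathy. RNMT adds the methyl group to the guanosine cap of RNA polymerase II transcripts, and naïve T cells have no sarcomeres.

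In the control libraries, Neb held 202, 256 and 218 sense counts, and in the Rnmt cKO libraries it held 5325, 5456 and 3469. All 3 Rnmt cKO libraries lay far above all 3 controls. Scaled for library size and composition, these were 23.7, 25.5 and 24.0 CPM (TMM-scaled counts, brought to a common library size) in control libraries 1, 2 and 3, and 561.6, 459.4 and 310.3 CPM in Rnmt cKO libraries 1, 2 and 3. The control mean was 24.4 ± 0.959 CPM, and the mean of the Rnmt cKO libraries was 443.8 ± 126 CPM (both SD, n = 3). The log2 ratio was 4.18 with a standard error of 0.25, an 18.2-fold higher level. The closest pair of libraries, Rnmt cKO library 3 and control library 2, still differed by 12.2-fold.

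Neb had reads in all controls. It held over 200 sense counts in each control library, on a gene with 24019 exon bases. The counted rise in Rnmt cKO cells thus started from a low level and not from nothing. The word ectopic would go further than these counts. Other-strand reads made up 19.2% to 21.0% of the Neb counts in controls. Whether part of the control sense counts was background was not tested. With 95% Wilson intervals, Neb took 2.17 (1.89 to 2.49), 2.504 (2.22 to 2.83) and 2.35 (2.06 to 2.69) of every 100000 gene counts in control libraries 1, 2 and 3. In Rnmt cKO libraries 1, 2 and 3 it took 60.0 (58.4 to 61.6), 49.3 (48.0 to 50.7) and 30.8 (29.8 to 31.8). The intervals cover counting error only, and not the spread between samples. The reads carry no molecular identifiers, so repeated reads of the same molecule could not be set aside. The 3 control intervals overlapped one another, whereas no 2 of the Rnmt cKO intervals did. Higher counts give intervals that are narrower for their level, so this contrast depends in part on the number of reads.

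**Figure D1:**
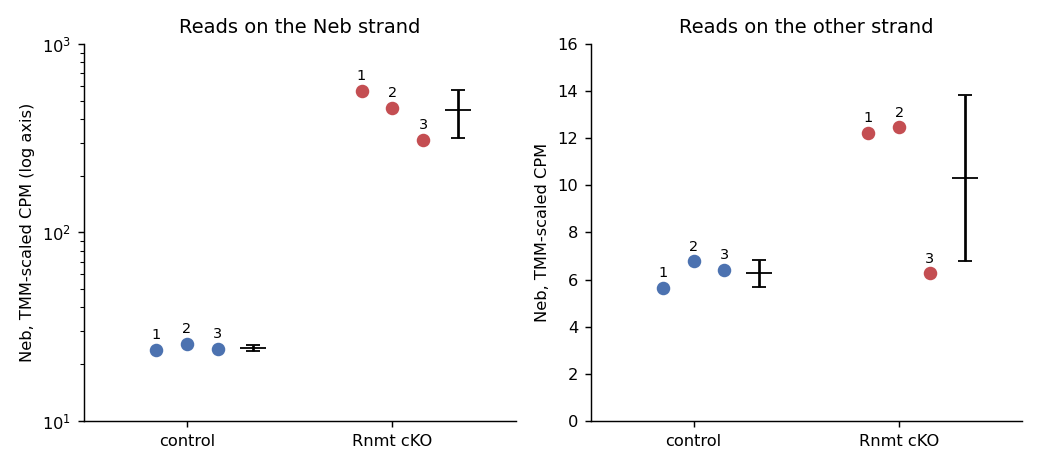
Neb in each library in TMM-scaled CPM, with reads on the Neb strand on a log axis (left) and reads on the other strand on a linear axis (right). Points are libraries with their replicate number, and the black mark with bars is the mean ± SD (n = 3); on the Neb strand the controls sit between 23.7 and 25.5 CPM and the Rnmt cKO libraries between 310.3 and 561.6 CPM, while on the other strand Rnmt cKO library 3 falls among the controls.

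The spread of Neb was wider in Rnmt cKO cells than in controls. The highest control library exceeded the lowest by 1.08-fold, a coefficient of variation of 3.93%, and the highest Rnmt cKO library exceeded the lowest by 1.81-fold, a coefficient of variation of 28.5%. Rnmt cKO library 3, the lowest for Neb, also had the smallest share of uniquely mapped reads outside genes of all libraries, 31.8%, against 47.9% and 46.5% in Rnmt cKO libraries 1 and 2 and 36.1%, 39.7% and 46.1% in control libraries 1, 2 and 3. The part of this share in the Neb level was not tested. Among the 3 libraries with the lower shares, 2 controls averaged 24.6 CPM against 310.3 CPM in the single Rnmt cKO library, a log2 ratio of 3.66. Among the 3 libraries with the higher shares, the single control had 24.0 CPM against an average of 510.5 CPM in 2 Rnmt cKO libraries, a log2 ratio of 4.41. Each set holds a group of a single library, and since all Rnmt cKO libraries lay above all controls, any split of the libraries gives a higher value in Rnmt cKO cells.

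Per length, Neb was low among the tested genes in controls and above their middle in Rnmt cKO cells. On the RPKM scale, which is the CPM divided by the exon length in kilobases, Neb stood at 1.02 ± 0.0399 in controls and at 18.5 ± 5.26 in Rnmt cKO cells (both SD, n = 3). The median of all 12296 tested genes with a known length was 9.06 RPKM in controls and 9.21 RPKM in Rnmt cKO cells. Neb was above 10.6% of these genes in controls and above 70.2% in Rnmt cKO cells. By CPM, which favours long genes, it went from rank 6229 to rank 261 of 12336.

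Of all 12336 genes tested, 987 (8%) were higher and 844 (6.84%) were lower in Rnmt cKO cells by edgeR's exact test after Benjamini-Hochberg adjustment, and the median log2 ratio was 0.01. The number of lower calls depended on single libraries, with 561 without Rnmt cKO library 2 and 1304 without Rnmt cKO library 3. Neb had the 9th largest fitted log2 ratio of all. The 8 genes above it were Gm33707, Ighg1, Ltf, Ighg2b, S100a9, Ighg3, Sapcd2 and S100a8, and each of them held at most 20 counts in every control library. They include immunoglobulin heavy chain genes of B lineage cells and granule or calcium-binding protein genes of neutrophils. Of the 8447 genes with a control mean of at least 10 CPM, Neb had the largest log2 ratio, and it was the only one with a ratio of at least 3. The next in this set were Mki67, which encodes the proliferation marker Ki-67, with a log2 ratio of 2.94, Igkc, an immunoglobulin light chain gene, with 2.93, Top2a, which encodes the DNA topoisomerase of dividing cells, with 2.56, 1600020E01Rik with 2.14 and Hist1h2ak, a replication-dependent histone gene, with 1.93. In absolute terms the mean of Neb rose by 419.3 CPM, the 7th largest gain. Of the 6 genes with a larger gain, which include Actb and Malat1, Igfbp4 had the highest log2 ratio, 1.13.

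**Figure D2:**
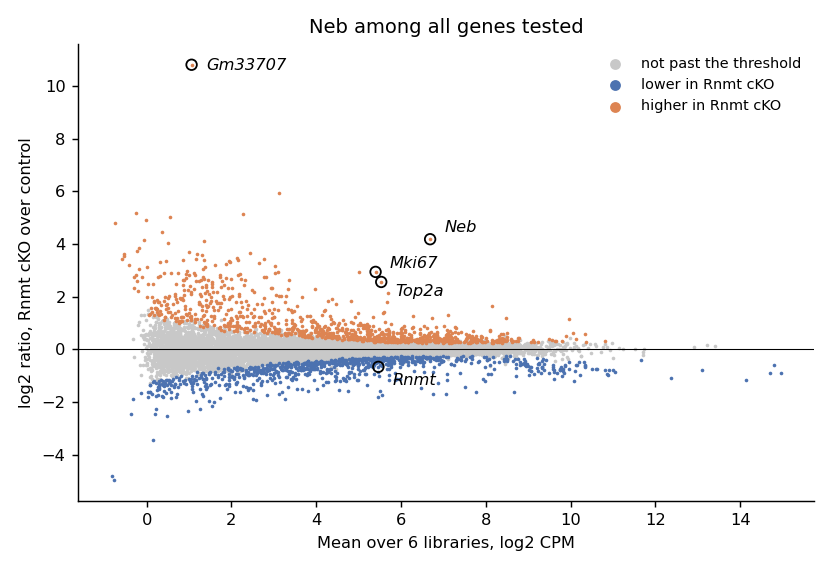
The log2 ratio of Rnmt cKO over control for each of the 12336 tested genes (vertical) against its mean log2 CPM over all 6 libraries (horizontal), with genes past the threshold in orange (higher) and blue (lower). Neb, at a log2 ratio of 4.18, stands apart from genes of like abundance, and Mki67 at 2.94 and Top2a at 2.56 lie below it.

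The samples were checked for their labelled genotype and cell type. Rnmt fell by 0.67 on the log2 scale, from 55.9 ± 3.93 to 35.3 ± 7.87 CPM (SD, n = 3 per group), with an adjusted p of 0.00035 by edgeR's exact test. Its counts come from the whole gene, of which a single exon is floxed. All 11 naïve CD4 T cell markers were measured in every library. Of these, 2 were higher, Cd4 among them, and Cd3g and Il7r were lower, where 8% and 6.84% of all tested genes were called in these directions. Gene counts ranged from 8873413 to 11277764 per library. Each pair of replicates differed beyond counting error, since chi-square divided by its degrees of freedom was 3.64 to 22.9.

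Some markers of other cells also differed between the groups, and 14.8% of all tested genes were called in either direction. The summed level of the 6 B cell markers was 33.1 to 40.2 CPM in controls and 43.0 to 72.5 CPM in Rnmt cKO libraries, and 3 of the 6 were higher, Cd79b and Ms4a1 among them. The sum of the 7 myeloid markers was 25.6 to 32.5 CPM in controls and 30.3 to 40.0 CPM in Rnmt cKO libraries, with Lyz2 higher among 4 tested. The sum of the 7 thymocyte markers was 39.1 to 50.3 CPM in controls and 54.7 to 62.5 CPM in Rnmt cKO libraries, with Arpp21 and Cd1d1 higher and Ptcra at 0 in all libraries. Erythroid and CD8 T cell markers moved the other way. The erythroid sum was 4.85 to 7.51 CPM in controls and 1.16 to 1.35 CPM in Rnmt cKO libraries, with both tested genes, Hbb-bs and Hba-a1, lower, and the sum of Cd8a and Cd8b1, both lower, was 21.6 to 23.2 CPM against 13.5 to 17.3 CPM. Of 2 tested NK cell markers, Eomes was higher and Klrd1 lower. The myeloid sums of the groups overlapped, and those of the B cell, thymocyte, erythroid and CD8 T cell markers did not. Some of these calls rested on the exact test, since the quasi-likelihood test called 1 B cell marker and DESeq2 called 2, and both called 1 thymocyte and 1 CD8 T cell marker. The B cell and myeloid sums were highest in Rnmt cKO library 2, whereas Neb was highest in Rnmt cKO library 1. The part of these cells in the Neb level was not tested.

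The position and strand of the gene bear on how its reads were counted. Neb lies on the minus strand of chromosome 2, at chr2:52136647-52378474 in mouse build GRCm38 (mm10), and its record spans 241.8 kb. The exons of its 3 basic transcripts, all protein coding, join into 162 blocks of 24019 bases in all, the 9th longest among tested genes. Neb-202 has 157 exons and 22489 bases, Neb-203 has 152 exons and 21456 bases, and Neb-201 covers a shorter stretch at the 3′ end with 74 exons and 10298 bases. The count tables hold 1 value per gene and strand, so the exons or transcripts that carried the reads were not analysed here. The record overlaps 3 other genes, the miRNA gene Gm22095, the pseudogene Gm13521 and the antisense gene Gm13522, none of which shares an exon base with Neb. Gm22095 and Gm13521 were at 0 in all 6 libraries, and Gm13522 had a single count, in control library 2.

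Reads on the other strand of the Neb exons moved less than the sense reads. There were 48, 68 and 58 of them in control libraries 1, 2 and 3 and 116, 148 and 70 in Rnmt cKO libraries 1, 2 and 3. On the CPM scale these were 5.63, 6.77 and 6.39 in controls and 12.2, 12.5 and 6.26 in Rnmt cKO cells, so the groups overlapped through Rnmt cKO library 3. The other strand held 19.2%, 21.0% and 21.0% of the Neb counts in controls and 2.13%, 2.64% and 1.98% in Rnmt cKO libraries. Most of the Neb reads in both groups were thus sense reads. For comparison, among 7357 tested genes with at least 100 sense counts in each group and no exon opposite another gene, the median other-strand share was 0.322% in controls and 0.422% in Rnmt cKO cells. The share of Neb exceeded that of 98.3% of these genes in controls and of 87.2% in Rnmt cKO cells.

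The genes around Neb did not share its rise. Of 20 genes counted within 500 kb of it, 5 could be tested, and none was called in either direction by edgeR's exact test, by its quasi-likelihood test or by DESeq2, nor was any of them at an unadjusted p under 0.05 in the exact test. Among all tested genes the exact test called 14.8% in either direction, and none among these 5 neighbours is not far from that share. The nearest, Rif1, a gene of DNA replication timing and repair that lies 14.3 kb past the 3′ end of Neb on the plus strand, had a log2 ratio of 0.03 and an adjusted p of 0.917. Arl5a, which encodes a small GTPase of the ARF-like family, lies 19.5 kb upstream on the strand of Neb and held 553, 629 and 567 counts in controls and 605, 784 and 804 in Rnmt cKO libraries, a log2 ratio of 0.09 and an adjusted p of 0.660. The others, Nmi (0.18, adjusted p = 0.320), Rbm43 (0.16, adjusted p = 0.409) and Stam2 (0.18, adjusted p = 0.365), lay 163.2 to 313.2 kb away. These 5 genes had 0 to 13 other-strand counts per library. Without Rnmt cKO library 3, Stam2 was called, with a log2 ratio of 0.26 and an adjusted p of 0.0475. The remaining 15 genes were at 10 counts or fewer in every library, 4 of them at 0 in all, and they include Cacnb4, a calcium channel subunit gene 49.8 kb upstream, with 2, 7 and 5 counts in controls and 1, 2 and 1 in Rnmt cKO libraries.

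**Figure D3:**
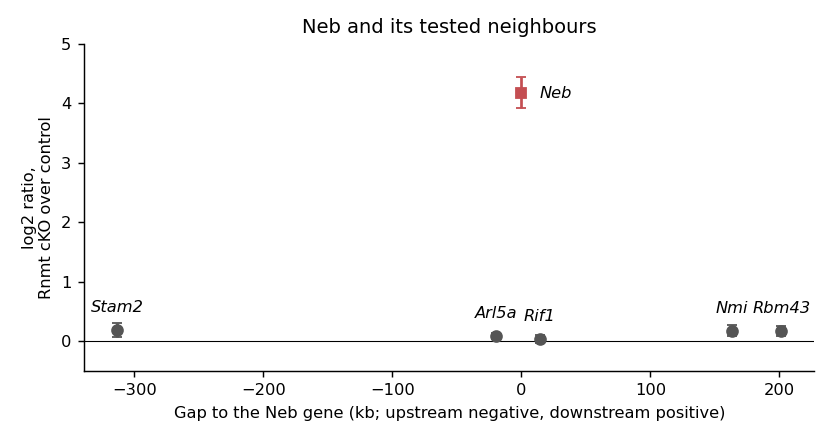
The log2 ratio of Rnmt cKO over control for Neb (square) and its 5 tested neighbours (circles), against the gap in kb between each gene and Neb. Bars are standard errors; the neighbours lie between 0.03 and 0.18, and Neb at 4.18.

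The other genes of the sarcomere and of muscle were examined as 94 genes in 6 lists. Of these, 23 could be tested, of which 4 were higher and 1 was lower, with a median log2 ratio of 0.18 against 0.01 for all genes tested. Among all tested genes 8% were called higher and 6.84% lower, 14.8% in either direction. The rest were near absence, since 70 of the 94 genes were at 10 counts or fewer in every library and 23 were at 0 in all. The summed level of the 94 genes was 1455 to 1466 CPM in controls and 1512 to 1676 CPM in Rnmt cKO libraries, most of it from genes that are not particular to muscle, such as Tpm3 and Lasp1. The number of higher calls was 8 without Rnmt cKO library 3, and 10 both with scaling by library size alone and with the share of reads outside genes as a covariate. It was 3 both with over 1 CPM required in all 6 libraries and with the replicate block. Lower calls were 2 without Rnmt cKO library 3.

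Within the nebulin family, neither of the relatives that could be tested was past the threshold, by edgeR's exact test, by the quasi-likelihood test or by DESeq2. The exact test called 14.8% of all tested genes in either direction. Nebl, which encodes nebulette, the cardiac relative of nebulin, had 40, 53 and 39 counts in controls and 36, 39 and 32 in Rnmt cKO libraries. Its log2 ratio was -0.53 with an adjusted p of 0.152. Lasp1, the short family member that binds actin in most cells, had a log2 ratio of 0.10 and an adjusted p of 0.607, and at 53.1 RPKM in controls and 56.8 RPKM in Rnmt cKO cells it was the most abundant of the family per length in both groups. Nrap, the family member of the muscle end and intercalated disc, had 11, 8 and 5 counts in controls and 1, 5 and 1 in Rnmt cKO libraries, and was not tested. Per length, the order of these 3 tested genes was Lasp1, Neb and Nebl in both groups, with Nebl at 0.46 RPKM in controls and 0.32 RPKM in Rnmt cKO cells. At an unadjusted p under 0.05, 1 of the 2 relatives tested was lower and 0 were higher.

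The thin filament, the partner of nebulin, was represented by 21 genes, of which 7 were tested. Tnnt1, the troponin T gene of slow muscle, was higher, with 15, 22 and 24 counts in controls and 40, 61 and 83 in Rnmt cKO libraries. Its log2 ratio was 1.34 with an adjusted p of 0.000388, and the groups did not overlap, as held for 16.6% of all genes tested in that direction. Tpm3, a tropomyosin gene used in most cells and the most abundant of the list by CPM, had a log2 ratio of 0.18 and an adjusted p of 0.315. Acta1, the skeletal muscle actin gene, had at most 1 count in any library, Actc1, its cardiac counterpart, was at 0 in all 6, and Tnnc2, the fast muscle troponin C gene, had at most 3. Lmod2 and Lmod3, whose products lengthen thin filaments, had at most 1 and 2 counts, and Klhl40 and Klhl41, which like Neb and Lmod3 are genes of nemaline myopathy, were at 0 in all 6 libraries.

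For the thick filament and titin, 4 of 22 genes were tested and 2 were higher, where 8% of all tested genes were called in that direction. Myom1, which encodes myomesin of the M line, went from 10, 13 and 10 counts to 46, 48 and 35, a log2 ratio of 1.73 with an adjusted p of 4.79e-06. Myl4, an atrial and embryonic light chain gene of myosin, went from 15, 8 and 19 counts to 40, 43 and 40, a log2 ratio of 1.30 with an adjusted p of 0.0018. Both were low, with Rnmt cKO means of 0.707 RPKM for Myom1 and 3.17 RPKM for Myl4. Myl4 was at 0.797 CPM in control library 2, so it passed the filter for testing only through the Rnmt cKO libraries. Ttn, the gene for titin, which spans the sarcomere as nebulin spans the thin filament, had 80, 60 and 68 counts in controls and 112, 183 and 75 in Rnmt cKO libraries. The groups overlapped, and its log2 ratio of 0.57 had an adjusted p of 0.218, although it was called without Rnmt cKO library 3, with an adjusted p of 0.00112. Per length, Ttn stood at 0.0671 RPKM in controls and 0.0996 RPKM in Rnmt cKO cells, far under Neb in both. The muscle myosin heavy chain genes Myh1, Myh2, Myh4 and Myh7 had at most 2 counts in any library.

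Of 19 genes of the Z disc and intermediate filaments, 3 were tested. Actn2, which encodes the sarcomeric α-actinin that anchors thin filaments in the Z disc, was lower, with 34, 34 and 33 counts in controls and 13, 21 and 16 in Rnmt cKO libraries. Its log2 ratio was -1.25 with an adjusted p of 0.000321. Capzb, a subunit gene of the actin capping protein that nebulin meets at the Z disc and the list's most abundant member by CPM in controls, had a log2 ratio of -0.13 and an adjusted p of 0.465. Des, the muscle intermediate filament gene, had at most 1 count.

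Of 15 myogenic regulators, 4 were tested, where 14.8% of all tested genes were called in either direction by edgeR's exact test. None of the 4 was called by edgeR's exact test, by the quasi-likelihood test or by DESeq2, with 1 higher and 1 lower at an unadjusted p under 0.05. These were the MEF2 genes Mef2a, Mef2c and Mef2d and the serum response factor gene Srf, which T cells also express. Mef2d, the most abundant of them by CPM, had a log2 ratio of -0.21 and an adjusted p of 0.181. Myod1, Myf5 and Myf6, transcription factor genes that set the muscle fate, were at 0 in all 6 libraries, and Myog had at most 1 count. The rise of Neb was therefore not accompanied by detectable reads of Myod1, Myf5 or Myf6 at this depth, where 3 counts, the limit that a count of 0 allows, correspond to at most a rate of 3 in 8873413 in the shallowest library.

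Of 14 genes of muscle metabolism and calcium release, 3 were tested. Eno3, the muscle enolase gene, was higher, with 129, 154 and 126 counts in controls and 283, 300 and 216 in Rnmt cKO libraries, a log2 ratio of 0.74 and an adjusted p of 0.000393. It was the list's most abundant member by CPM. Of 25 genes of the leukocyte actin cytoskeleton, all tested, none was higher and 1 was lower, where 8% and 6.84% of all tested genes were called in these directions. Their median log2 ratio was 0.01, and no difference from the muscle lists was tested. The lower one was Evl, a gene of actin filament elongation, with a log2 ratio of -0.28 and an adjusted p of 0.0374, a call that did not hold in 9 of 15 alternatives. Without the adjustment, 1 of the 25 was higher and 3 were lower, and the quasi-likelihood test called none in either direction and DESeq2 called 2 lower. Actb, the cytoplasmic β-actin gene and the most abundant of them by CPM, had a log2 ratio of 0.16 and an adjusted p of 0.565. In bulk samples a change in the number of cells that express a gene and a change in its RNA per cell cannot be told apart.

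**Figure D4:**
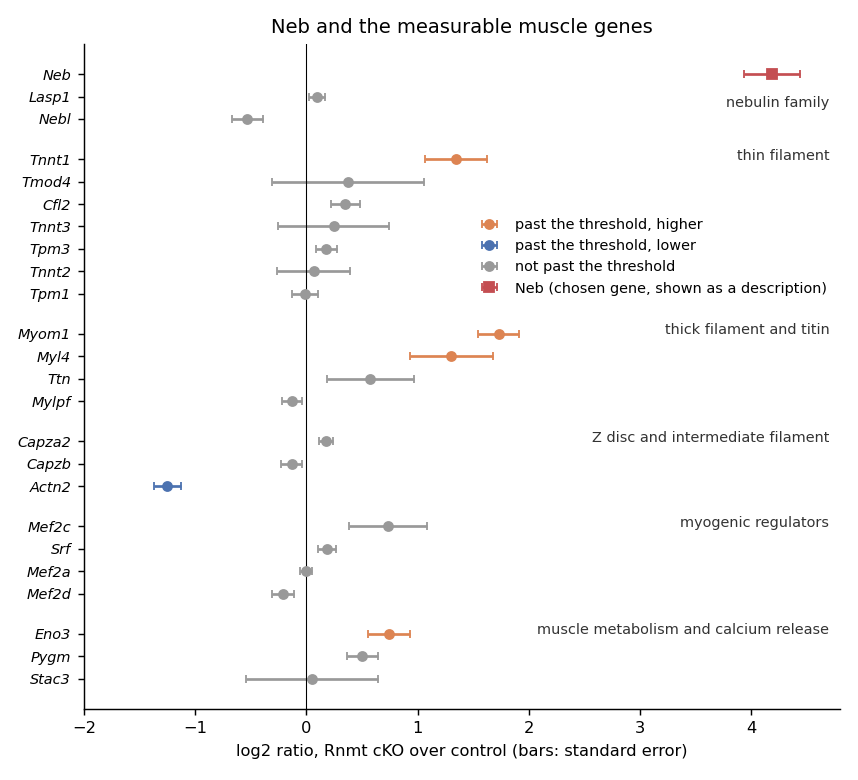
The log2 ratio of Rnmt cKO over control, with its standard error, for Neb (square) and the 23 muscle genes that could be tested (circles), grouped by list. Neb lies at 4.18, and of the others the highest is Myom1 at 1.73 and the lowest Actn2 at -1.25.

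The defining genes of muscle cells were at or near 0 in every library. Acta1, Myh1, Myh2, Myh4, Des and Myog had at most 2 counts in any library, and Ckm and Myod1 had no more. The 5 smooth muscle markers summed to 0.704 to 0.882 CPM in controls and 0.626 to 0.949 CPM in Rnmt cKO libraries, and none could be tested. Of 8 stromal and endothelial markers, 7 were at 10 counts or fewer in every library and the other, Pecam1, which T cells also express, had a log2 ratio of 0.09 and an adjusted p of 0.644.

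Other genes with a large exon length were set beside Neb. This length joins the exons of all basic transcripts of a gene, so it can exceed the length of any single transcript. Among 303 tested genes with at least 10 kb of exon, other than Neb, 22 were higher and 26 were lower, where 8% and 6.84% of all tested genes were called in these directions. Their median log2 ratio was -0.04, and the highest was that of Dnah12, an axonemal dynein gene, at 3.39. The 10 longest after Neb was set aside had log2 ratios from -0.80 for Ntrk3, a neurotrophin receptor gene (adjusted p = 1.68e-05), to 0.57 for Ttn. Of these 10, D10Wsu102e (0.37, adjusted p = 0.0104) and D1Ertd622e (0.46, adjusted p = 0.0035) were higher, and Zbtb20, a zinc finger repressor gene (-0.46, adjusted p = 0.0178), and Ntrk3 were lower. Kcnq1ot1, Dst, Syne1, Macf1 and Syne2 were not past the threshold, with log2 ratios from -0.22 to 0.11. Macf1, Dst, Syne1 and Syne2 encode giant cytoskeletal linkers.

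The tested genes whose profile over the 6 libraries was closest to that of Neb were Ccna2, Psrc1, Cenpf, Esco2, E2f8, Kif14, Neurl1b, Hist1h2ab, Pclaf and Nusap1. Closeness was the root mean square distance between log2 CPM values centred on each gene's mean. It ran from 0.437 for Ccna2 to 0.600 for Nusap1. The values were centred but not scaled, so a small distance calls for a log2 ratio of like size. The log2 ratios of the 10 ran from 3.29 for Cenpf to 4.14 for Neurl1b. Neb was chosen for its rise, so the list is a description and carries no test. Pearson's r with Neb over the 6 libraries ran from 0.962 for Nusap1 to 0.993 for Cenpf, values that the separation of the groups alone makes high and that carry no test. All 10 were rarer than Neb in both groups, with control means of 0.136 to 1.92 CPM and Rnmt cKO means of 2.75 to 18.9 CPM. Psrc1, Esco2, E2f8, Kif14 and Neurl1b were under 1 CPM in every control library. Hist1h2ab, Pclaf and Nusap1 were each at 0.772 CPM in control library 3. Testing required over 1 CPM in at least 3 libraries. All of these genes were thus among the tested genes only through the Rnmt cKO libraries. In Rnmt cKO library 1, the highest for Neb, none of the 10 was as far above its own mean as Neb was. Ccna2, the closest gene, had 16.1, 19.8 and 18.1 CPM in Rnmt cKO libraries 1, 2 and 3. It was thus lowest of that group in the library where Neb was highest. Psrc1 (7.80, 6.31 and 4.74 CPM), Kif14 (8.33, 7.58 and 5.81 CPM) and Neurl1b (3.16, 2.95 and 2.15 CPM) had the order of Neb. The rest of the 10 had other orders.

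**Figure D5:**
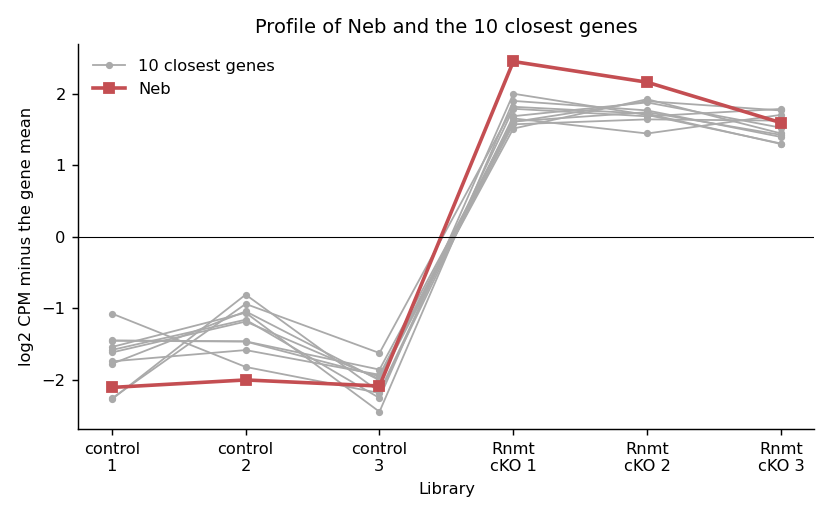
Centred log2 CPM of Neb (red) and the 10 genes with the closest profiles (grey) in each of the 6 libraries, where 0 is each gene's own mean. Neb lies near -2 in all controls and is highest in Rnmt cKO library 1 and lowest of that group in library 3, while the grey lines differ less among Rnmt cKO libraries and scatter more among controls.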

How the data were processed

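The authors aligned the 75 bp paired-end reads with STAR 2.5.2b, to mm10 with GENCODE vM12 (basic set) as annotation, and raw counts per gene and strand were deposited. The authors also deposited a table with a normalised signal per sample, which was used here only to find the sense column, and with columns of their own comparison, fold changes and p-values, which were not used. Counts on the sense strand were scaled with TMM, and genes over 1 CPM in at least 3 samples were tested with the exact test of edgeR 4.0.16 in R 4.3.3, with Benjamini-Hochberg adjustment over all genes and a threshold of 0.05. Standard errors come from log2 CPM with a prior count of 2. RPKM and positions use GENCODE vM21, in which 46488 of the 46983 identifiers were found. Gene counts came to 8873413 to 11277764 per library. Reads outside genes, 31.8% to 47.9% of uniquely mapped reads, and ambiguous reads stayed out of library sizes. Wilson intervals (scipy 1.17.1) cover counting error only. Neb and the gene lists were chosen with earlier results of these data known. Named genes are Neb, its tested relatives and neighbours, the called and the most abundant members of each muscle and actin list, the 10 closest profiles, the 10 longest genes and Rnmt. Other genes were named after their values were seen. Of the genes in the marker lists and the list of gains, 2 are not reported here by name. The code was tested on simulated data. The alternatives were the quasi-likelihood test, DESeq2 1.42.0, other scalings and filters, counts of either strand, a replicate block, the share of reads outside genes as a covariate, and leaving out each library.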

Additional observations from a re-analysis of the deposited data

How the results depend on the processing

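The log2 ratio of Neb lay between 3.88, with counts of either strand, and 4.36, without Rnmt cKO library 3, over 16 alternatives, all within the replicate SD of 0.31 of 4.18. It was 4.14 with the replicate block and 4.09 with the share of reads outside genes as a covariate. Scaling by library size alone moved the median of all genes from 0.01 to 0.14 and the share of higher calls from 53.9% to 78.4%. It gave 1939 genes higher and 535 lower, 10 muscle genes higher and 1 neighbour higher, Nmi. The covariate gave 1696 genes higher and 1466 lower, 10 muscle genes higher and 2 lower, and 1 neighbour higher, again Nmi. Libraries of the same number did not deviate together (correlations of -0.213, -0.0164 and -0.345). Other differences between libraries could hide a pairing, so whether the numbers pair the samples is not known. With the replicate block there were 431 genes higher, 276 lower and 0 muscle genes lower, with Actn2 at an adjusted p of 0.0601 and Myl4 at 0.0747. Leaving out 1 library at a time gave 661 to 1297 genes higher, 561 to 1304 lower, 4 to 8 muscle genes higher, 1 to 2 muscle genes lower, 0 to 1 neighbours higher and 3.97 to 4.36 for the log2 ratio of Neb. The cause of these shifts was not tested. D10Wsu102e was not called in 3 of 15 alternatives, D1Ertd622e in 2 and Zbtb20 in 5. Among Neb, Rnmt and the muscle, actin, neighbouring, long and closest-profile genes, no direction that was called reversed in the alternatives run. The marker genes and the other large rises were not rerun in this way. Of the 94 muscle genes, 70 had at most 10 counts in every library, and these could not be tested at this depth.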

Other observations

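The largest log2 ratio of all tested genes belonged to Gm33707, a processed pseudogene, ENSMUSG00000102298, at chr3:60769887-60770455 on the minus strand of GRCm38. It was chosen here after its values were seen. Gm33707 had 0 counts in all 3 control libraries and 277, 274 and 167 in Rnmt cKO libraries 1, 2 and 3. Its levels in the Rnmt cKO libraries were 29.2, 23.1 and 14.9 CPM, the same order of libraries as for Neb. These counts equalled 5.20%, 5.02% and 4.81% of the Neb counts of the same libraries. Against a floor of 3 counts over the control group, 0.109 CPM, the Rnmt cKO mean of 22.4 CPM was at least 206-fold higher. The tables hold 1 count per gene, so the source of the reads assigned to Gm33707 cannot be told from them, and neither the level nor the bound is known to be that of the pseudogene's own transcript.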
